A study of Mus musculus with 12 samples.

Results

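The genes described here make up the plasminogen activator system and its neighbours: the activators Plau and Plat, the receptor Plaur, the serpins Serpine2, Serpinb2 and Serpinb5, and the tissue inhibitors of metalloproteinases Timp1, Timp2 and Timp3. They were chosen by gene symbol, through probe sets that carry that symbol alone. A probe set was matched for 8 of the 9 genes, out of 18193 genes measured in this way. None carries Serpine2 in the annotation used, so that gene, which encodes protease nexin 1, an inhibitor of urokinase and thrombin, was not analysed here.

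Tumour RNA was measured on 12 Affymetrix arrays, with 4 arrays each for the mouse lung adenocarcinoma lines 344SQ, 393LN and 393P. All were grown from tumours of p53R172H∆g/+ K-rasLA1/+ mice, so the donor genotype was the same for every group. 344SQ, labelled highly metastatic, came from a subcutaneous site of one mouse. 393LN, labelled intermediately metastatic, came from a mediastinal lymph node of another mouse, and 393P, labelled non-metastatic, from a primary lung tumour of the same animal as 393LN. The lines are mass populations of tumour cells, and the arrays are of tumours they formed in syngeneic mice, dissected and frozen. No treatment was given. The labels name no age, host strain or batch, and do not say whether the arrays of a line come from separate animals, so the p-values measure the spread between these samples. Metastatic class and the mouse of origin cannot be told apart in the comparisons of 344SQ with 393LN and 393P.

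Plasmin is a broad protease of fibrin and matrix, made from circulating plasminogen by urokinase (the product of Plau) or tissue-type plasminogen activator (Plat). Urokinase works at the cell surface, bound to the glycolipid-anchored receptor encoded by Plaur, and is held in check by serpins, suicide inhibitors that trap a protease as it cuts them. Plasmin in turn activates several metalloproteinases, which the Timp proteins block. In tumours different members of this set are expressed by carcinoma cells or by macrophages, neutrophils, fibroblasts and other cells of the host.

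Levels are given as log2(intensity + 16) of the brightest probe set of each gene, a scale on which the lowest possible value is 4.09 and 1 unit is a doubling for a bright gene. Array medians of log2 intensity lay between 7.19 and 7.29. Actin probes at the 3' end gave 1.47 times the signal of those at the 5' end on 393P replicate 1, a ratio that rises as RNA degrades, while the remaining arrays had ratios of 1.04 to 1.19. The keratin genes Krt8 and Krt18, markers of simple epithelium, were bright on every array (lowest 13.64 and 14.08). The lung lineage factor gene Nkx2-1 was near the floor on all 12 (highest 4.57). Other lung lineage genes were above the floor on every array, with Napsa at 8.4 to 9.06 and Sftpc at 6.28 to 7.36.

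Between 344SQ and 393P, both activators were lower in 344SQ while the receptor was higher, and the serpins split. The verbs rose and fell are used for genes whose adjusted p was under 0.05 in the limma fit of all 18193 genes. Plau, Plat and Serpinb5 fell in 344SQ, and Plaur and Serpinb2 rose. None of the 3 Timp genes passed. That is 5 of 8 genes called, where the share over the 18193 genes was 10.5% (4.86% higher, 5.62% lower). The values of the 4 344SQ arrays did not overlap those of the 4 393P arrays in 6 of the 8, against 16.7% of all genes (8.12% higher, 8.62% lower). The median change of the 8 genes was 0.33 (-0.00066 over all genes), while their mean change was -0.47, with 5 positive and 3 negative. Against 393LN, 3 of the 8 were called (Plau and Serpinb5 fell, Plaur rose), where 10.9% of all genes were (3.99% higher and 6.92% lower), and 4 of 8 did not overlap, against 17.4% (6.72% higher, 10.7% lower). Between 393LN and 393P none of the 8 was called by limma (2.45% of all genes were, 1.75% higher and 0.698% lower in 393LN), although 1 of the 8, Plat, had an unadjusted p under 0.05. All 8 overlapped there, where 10.3% of all genes did not overlap (6.69% higher, 3.57% lower). Both comparisons of 344SQ use the same 4 344SQ arrays. In RNA of whole tumours, a gene made by one of several cell types can be lower through less RNA per cell or through fewer such cells, and these cannot be told apart from its level alone. Without 344SQ replicate 2, 3 or 4 the number of genes called against 393P was 3, since Plaur and Serpinb2 then missed the threshold.

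**Figure D1:**
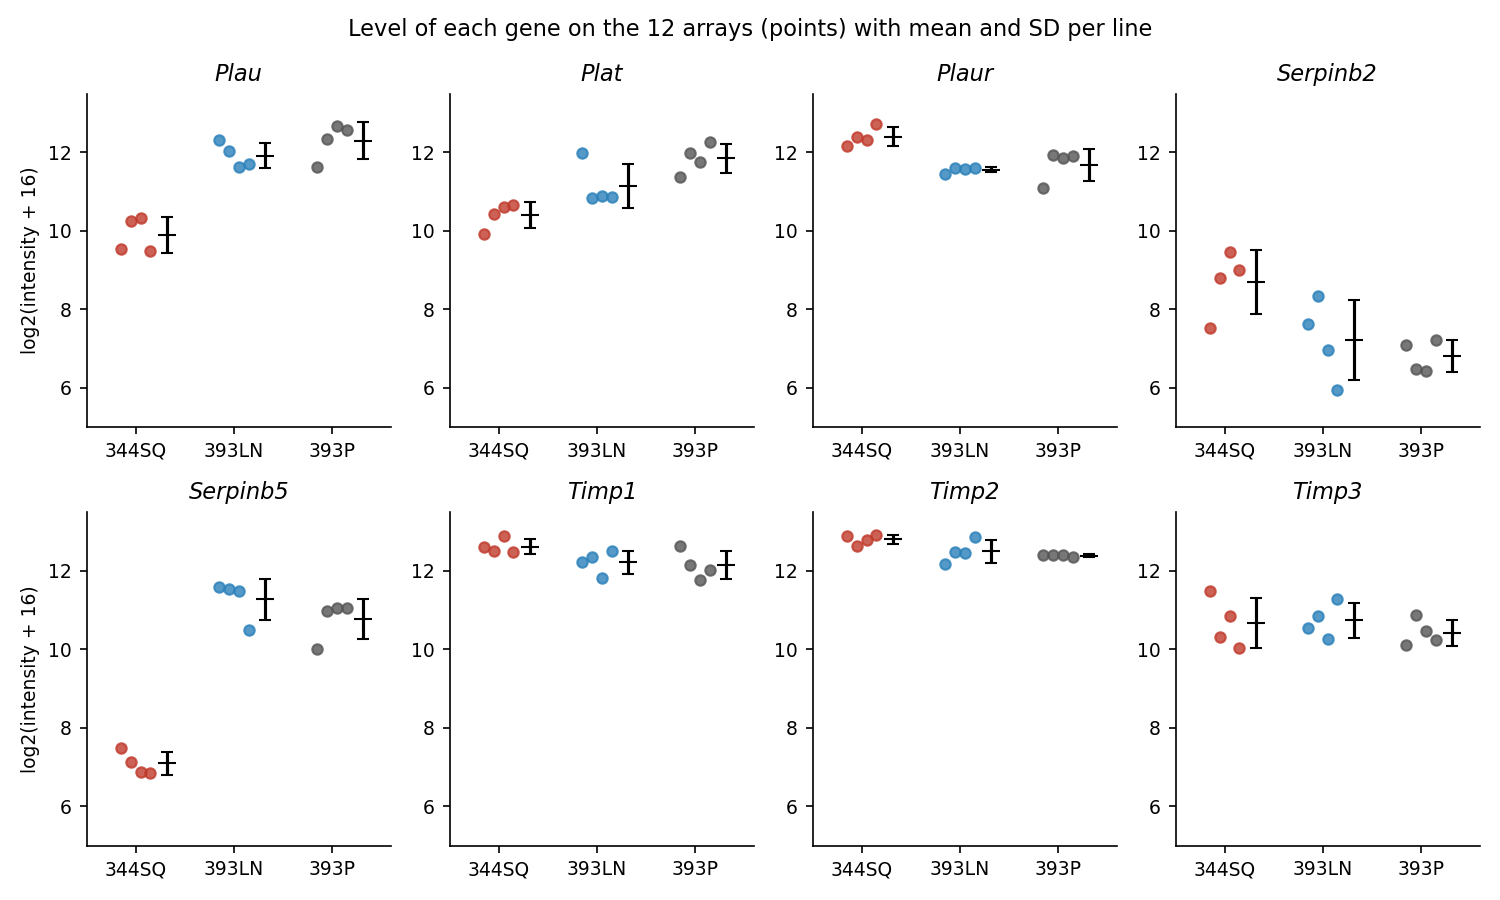
Level of each of the 8 genes, as log2(intensity + 16), on the 4 arrays of 344SQ, 393LN and 393P (points), with the mean and SD of the 4 arrays beside them. In Plau and Serpinb5 every 344SQ point lies under all 8 points of 393LN and 393P, and in Plaur every one lies over them. The line means of the 3 Timp genes lie close together, with a widest range of 0.47 (Timp1).

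Plau had the larger change of the 2 activators. It was at 9.54, 10.26, 10.34 and 9.48 on the 344SQ arrays, against 12.31, 12.03, 11.62 and 11.70 in 393LN and 11.62, 12.34, 12.67 and 12.56 in 393P. All 4 values of 344SQ lay more than 1 unit under the lowest of the other 8. The mean was 9.91 ± 0.46 in 344SQ, 11.91 ± 0.32 in 393LN and 12.30 ± 0.48 in 393P (SD, n = 4 arrays each). Plau was thus 5.26-fold lower in 344SQ than in 393P (log2 change -2.39 ± 0.27 SE, limma adjusted p = 0.000147) and 4.02-fold lower than in 393LN (-2.01 ± 0.27, limma adjusted p = 0.000703). By size of fall Plau ranked 73 of the 18193 genes against 393P and 92 against 393LN. 393LN and 393P overlapped, and their difference of -0.39 had a 95% confidence interval of -0.97 to 0.20.

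A second probe set of Plau was dimmer and moved the same way. It was at 6.74, 6.50, 6.77 and 6.82 in 344SQ, against 9.50, 9.31, 8.66 and 9.15 in 393LN and 6.85, 10.08, 10.64 and 10.38 in 393P. On 393P replicate 1 it stood just above the highest 344SQ array, while the brighter probe set on that array, at 11.62, did not. That array is the one with the highest actin ratio, whose part in the value was not tested. The second probe set fell by 2.78 ± 0.65 against 393P (limma adjusted p = 0.0214, over 34945 probe sets) and by 2.45 ± 0.65 against 393LN (limma adjusted p = 0.0398).

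Plat, whose product is best known for dissolving clots, was graded across the lines. It was at 9.92, 10.44, 10.60 and 10.66 in 344SQ, against 11.99, 10.83, 10.89 and 10.87 in 393LN and 11.38, 11.99, 11.77 and 12.26 in 393P. No 344SQ value reached those of 393LN or 393P, and 393LN replicate 1 stood apart from its line, among the 393P values. Plat fell 2.72-fold in 344SQ against 393P (-1.44 ± 0.28, limma adjusted p = 0.00590). Neither step of the gradient passed by itself: the change was -0.74 ± 0.28 in 344SQ against 393LN (limma adjusted p = 0.112) and -0.70 ± 0.28 in 393LN against 393P (limma adjusted p = 0.230). Without 393LN replicate 1 the change of 393LN against 393P was -0.98 and passed (limma adjusted p = 0.0439), while that of 344SQ against 393LN was -0.46 (limma adjusted p = 0.223). The other probe set of Plat was close to the floor on every array (highest 4.83) and can show little.

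Plaur, the urokinase receptor gene, went the opposite way to its ligand. It was at 12.18, 12.39, 12.31 and 12.72 in 344SQ, against 11.46, 11.60, 11.57 and 11.60 in 393LN and 11.08, 11.93, 11.85 and 11.91 in 393P. Every 344SQ array was above every array of 393LN and 393P, and 393P replicate 1 was the lowest of the 12. Plaur rose 1.80-fold in 344SQ against 393LN (0.85 ± 0.18, limma adjusted p = 0.0123) and 1.64-fold against 393P (0.71 ± 0.18, limma adjusted p = 0.0272). The call against 393P was lost without 344SQ replicate 2, 3 or 4 (limma adjusted p 0.0524 to 0.0696) and in a fit of those 2 lines alone (0.0697), whereas that against 393LN held without any single array (highest limma adjusted p 0.0356). The interval for 393LN against 393P was -0.53 to 0.26. Plaur has 1 probe set.

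The promoter window of Plaur is shown because it holds a match to the AP-1 element, a kind of site through which the human gene is known to be regulated. Windows run from 250 bases before to 50 after the annotated start and come from a table of RefSeq sequences (GRCm38.p6) in which 7 of the 9 genes were matched; windows of Plau and Plat were not used here. Capitals mark a match to TGACTCA (AP-1) or to CAGGTG (an E-box of the kind that Snail and Zeb factors bind), each searched on both strands. The motifs were chosen with the sequences known.
Plaur, chr7:24462233-24462532, plus strand: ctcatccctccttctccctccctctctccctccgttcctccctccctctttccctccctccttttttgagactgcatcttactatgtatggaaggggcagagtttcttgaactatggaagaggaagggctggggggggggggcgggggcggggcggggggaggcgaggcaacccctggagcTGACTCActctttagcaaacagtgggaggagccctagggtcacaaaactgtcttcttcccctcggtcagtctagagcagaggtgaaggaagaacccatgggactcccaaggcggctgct
TGACTCA stands in the window of 1 of the 7 genes, Plaur, and in 5.2% of the 32851 windows of all genes. CAGGTG stands in those of 3 of the 7 (Serpinb5, Timp2 and Timp3) and in 20.2% of all windows. A match describes the letters only.

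Serpinb5 had the largest change of the 8 genes. It encodes maspin, an epithelial serpin that does not inhibit proteases in the classical way and is known for its loss in some carcinomas. In linear intensity it was at 164, 125, 103 and 100 on the 344SQ arrays, against 3061, 2937, 2856 and 1418 in 393LN and 1024, 1992, 2106 and 2106 in 393P. The lowest array of 393LN and 393P was far above the highest 344SQ array. On the log2 scale the means were 7.10 ± 0.29 in 344SQ, 11.27 ± 0.53 in 393LN and 10.77 ± 0.50 in 393P (SD, n = 4 each). Serpinb5 was 18.1-fold lower in 344SQ than in 393LN (-4.17 ± 0.29, limma adjusted p = 3.86e-06) and 12.8-fold lower than in 393P (-3.68 ± 0.29, limma adjusted p = 1.05e-05). By size of fall it ranked 14 of 18193 genes against 393LN and 28 against 393P. 393LN and 393P overlapped, with a difference of 0.50 and an interval of -0.12 to 1.12.

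All 3 other probe sets of Serpinb5 fell as well. Their log2 changes against 393P were -2.88, -2.15 and -2.90 (limma adjusted p 0.000134, 0.00377 and 0.000833), and those against 393LN were -3.70, -2.85 and -3.73. In 344SQ they were as low as 4.42 on one array, near the floor, so that their folds understate the change. In 393LN replicate 1 was the highest and replicate 4 the lowest on each of the 4 probe sets.

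Serpinb2, which encodes plasminogen activator inhibitor type 2, rose in 344SQ against 393P. It was dim and spread widely, at 7.53, 8.79, 9.45 and 9.02 in 344SQ, against 7.64, 8.35, 6.97 and 5.95 in 393LN and 7.09, 6.48, 6.43 and 7.23 in 393P. The 344SQ arrays were all above those of 393P, and overlapped 393LN. Serpinb2 rose 3.70-fold against 393P (1.89 ± 0.49, limma adjusted p = 0.0288), a call lost without any of 5 arrays (344SQ replicate 2, 3 or 4, 393P replicate 2 or 3; limma adjusted p 0.0674 to 0.0869). Against 393LN the change was 1.47 ± 0.49 (limma adjusted p = 0.0780), and it passed without 344SQ replicate 1 (1.86, limma adjusted p = 0.0332) or 393LN replicate 2 (1.84, limma adjusted p = 0.0374). 393LN against 393P gave 0.42, with an interval of -0.65 to 1.48.

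**Figure D2:**
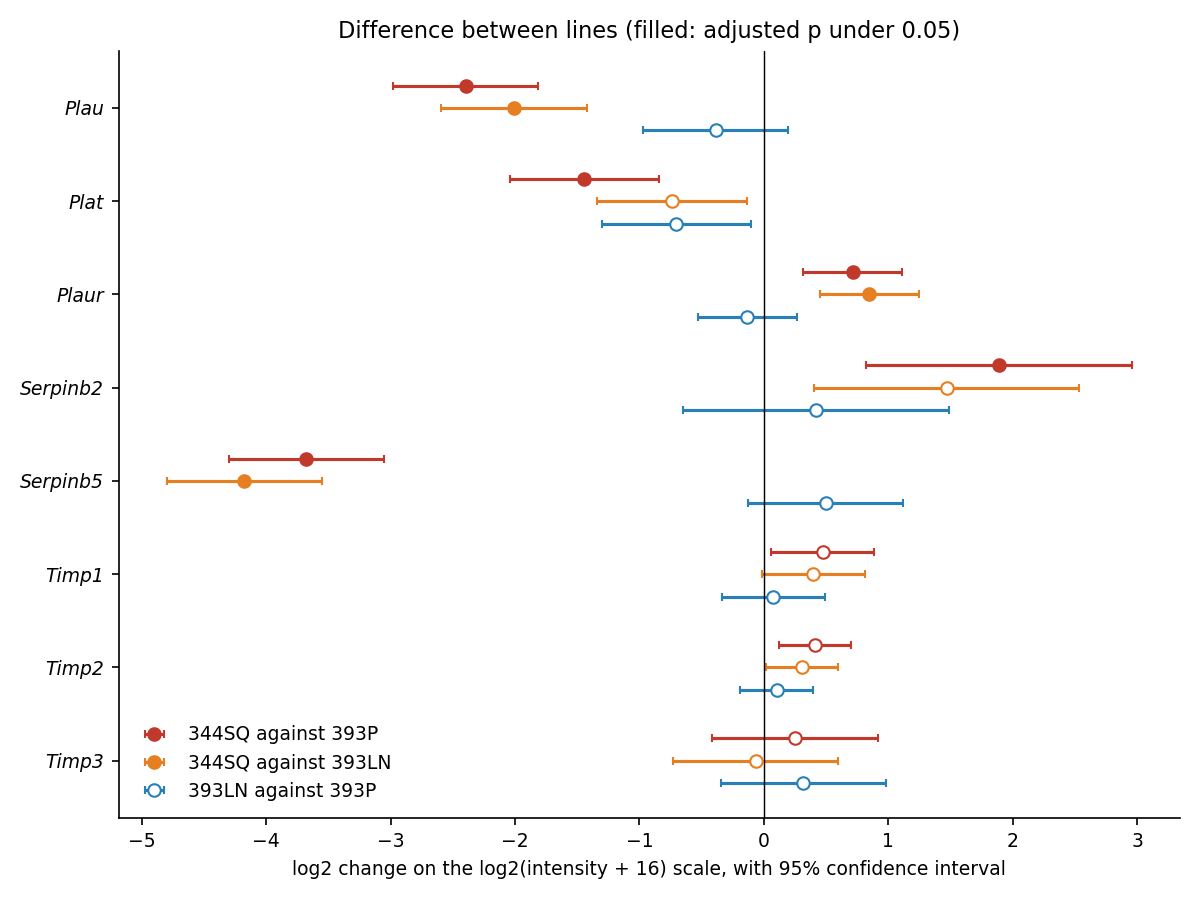
Log2 change of each gene in the 3 comparisons, with its 95% confidence interval from limma; filled points have an adjusted p under 0.05. Plau and Serpinb5 lie far to the left in both comparisons of 344SQ, Plaur to the right, and no gene is filled for 393LN against 393P.

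Serpinb5 and Serpinb2 lie in one cluster of serpin B genes on chromosome 1, and their promoter windows are shown because the 2 genes moved in opposite directions.
Serpinb5, chr1:106860925-106861224, plus strand: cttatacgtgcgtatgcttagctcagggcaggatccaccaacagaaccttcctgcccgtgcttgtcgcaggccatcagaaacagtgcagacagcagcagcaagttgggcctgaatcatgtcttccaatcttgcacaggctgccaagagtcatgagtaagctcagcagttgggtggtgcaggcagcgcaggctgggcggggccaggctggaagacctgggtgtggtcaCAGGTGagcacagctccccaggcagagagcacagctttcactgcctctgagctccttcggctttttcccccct
Serpinb2, chr1:107511173-107511472, plus strand: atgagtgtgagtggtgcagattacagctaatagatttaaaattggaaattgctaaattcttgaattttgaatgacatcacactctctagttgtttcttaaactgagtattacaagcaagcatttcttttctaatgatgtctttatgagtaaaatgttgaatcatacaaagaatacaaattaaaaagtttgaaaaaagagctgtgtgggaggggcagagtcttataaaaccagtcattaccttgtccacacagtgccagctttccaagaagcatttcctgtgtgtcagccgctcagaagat
The capitals mark CAGGTG in the Serpinb5 window; the Serpinb2 window, the first of its 2 annotated starts, holds neither motif. RefSeq places 8 other serpin B genes between them, and 7 of the 12 genes of the cluster were measured. This set was chosen by position after the values of the outer genes were seen, so its values are a description. Serpinb12, Serpinb3a, Serpinb11 and Serpinb7, which lie between Serpinb5 and Serpinb2, had changes of -0.22, -0.23, -0.02 and 0.33 in 344SQ against 393P. They were dim in every line, with line means from 4.31 to 7.44. Serpinb8, beyond Serpinb2, had a change of -0.51.

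**Figure D3:**
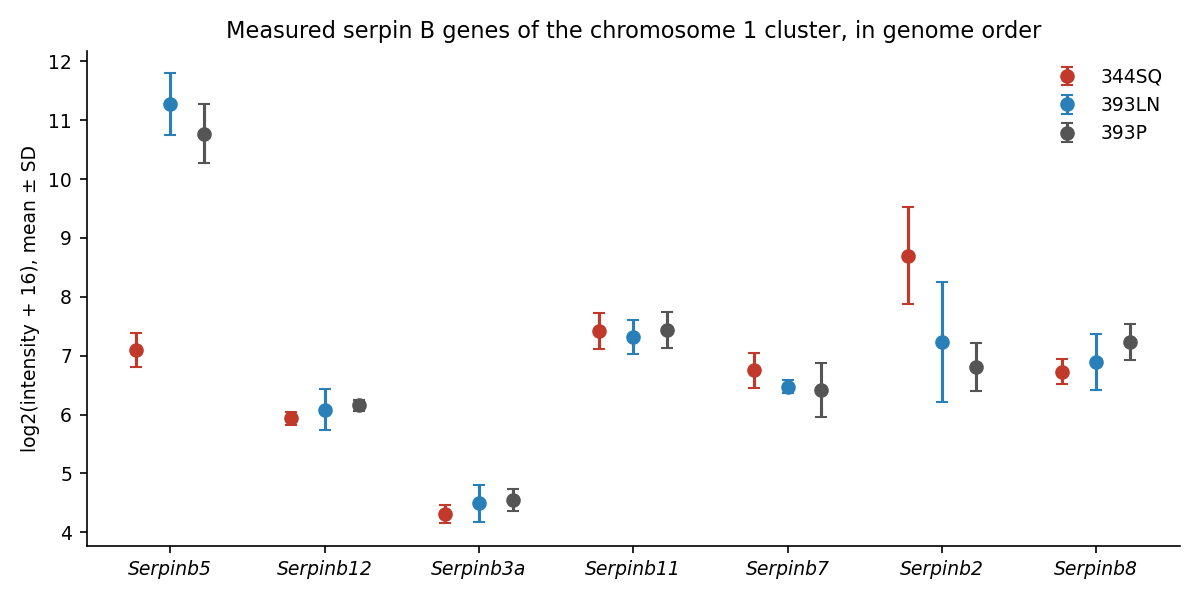
Mean log2(intensity + 16) with SD (n = 4 arrays per line) of the 7 measured serpin B genes of the chromosome 1 cluster, in the order of the RefSeq table. Serpinb5 is low in 344SQ and Serpinb2 is highest there, while the other 5 genes have line means within 0.6 of each other.

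The Timp genes encode the secreted inhibitors of metalloproteinases and differed little. Timp1 was at 12.61, 12.50, 12.88 and 12.47 in 344SQ, against 12.21, 12.35, 11.82 and 12.50 in 393LN and 12.62, 12.16, 11.78 and 12.03 in 393P. Its values overlapped in all 3 comparisons, with changes of 0.47 ± 0.19 against 393P (limma adjusted p = 0.149) and 0.40 ± 0.19 against 393LN (limma adjusted p = 0.216). Without 393P replicate 1, the highest of its line, the change against 393P was 0.63 and passed (limma adjusted p = 0.0393).

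Timp2, which also takes part in activating the gelatinase encoded by Mmp2, was at 12.88, 12.63, 12.79 and 12.90 in 344SQ, against 12.18, 12.47, 12.45 and 12.87 in 393LN and 12.41, 12.41, 12.39 and 12.34 in 393P. The 344SQ arrays were all above those of 393P, which differed by under 0.1 among themselves, and overlapped 393LN through replicate 4 alone. The change against 393P was 0.41 ± 0.13 (limma adjusted p = 0.0734), and it passed without 393LN replicate 1 or 4 or 393P replicate 4 (limma adjusted p 0.0300 to 0.0498). Timp2 has 6 probe sets, the most of the 8 genes, and all 6 were higher in 344SQ than in 393P, by 0.41 to 0.89. One of the 5 others passed (0.57 ± 0.13, limma adjusted p = 0.0226). Against 393LN the change was 0.31 ± 0.13 (limma adjusted p = 0.167), with 0.44 without 393LN replicate 4 (limma adjusted p = 0.0336) and 0.20 without 393LN replicate 1 (limma adjusted p = 0.352).

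Timp3, whose product stays bound to the matrix, was at 11.48, 10.32, 10.85 and 10.03 in 344SQ, against 10.55, 10.84, 10.27 and 11.29 in 393LN and 10.11, 10.87, 10.46 and 10.24 in 393P. The spread within 344SQ (SD 0.64) exceeded every difference between lines. The change against 393P was 0.25, with an interval of -0.41 to 0.91, and that against 393LN was -0.07, with an interval of -0.73 to 0.60. Its 4 probe sets did not share a direction in either.

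**Figure D4:**
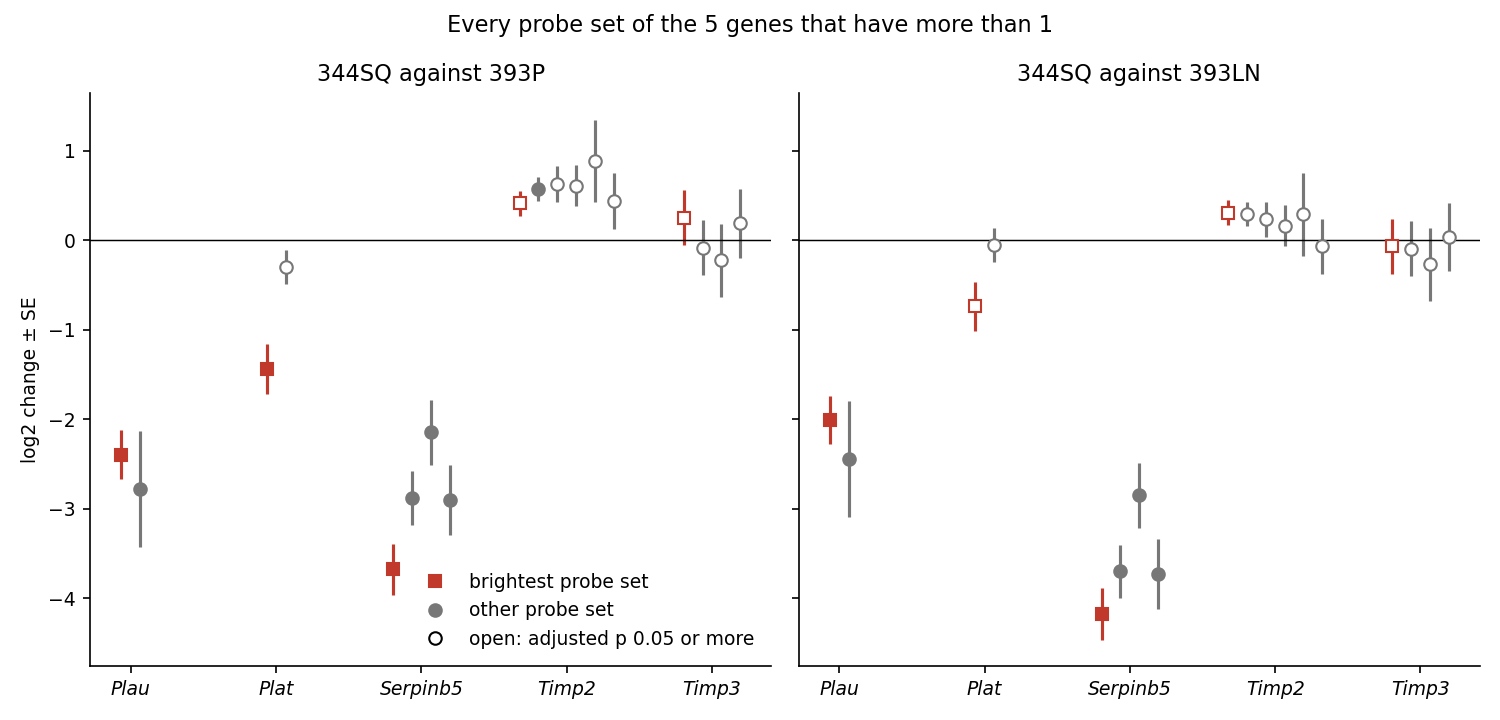
Log2 change with SE of every probe set of the 5 genes that have more than 1, for 344SQ against 393P (left) and against 393LN (right); squares are the brightest probe set and filled symbols have an adjusted p under 0.05. The probe sets of Plau and Serpinb5 all lie below -1.9, those of Timp2 all lie above 0 on the left, and those of Timp3 lie on both sides of it.

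Within each gene the order of the line means was as follows. 344SQ was lowest in Plau, Plat and Serpinb5 and highest in Plaur, Serpinb2, Timp1 and Timp2. 393LN lay between the others in Plau, Plat, Serpinb2, Timp1 and Timp2. Of these neighbouring steps, those that passed were 344SQ under 393LN in Plau, 344SQ under 393P in Serpinb5 and 344SQ above 393P in Plaur.

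**Figure D5:**
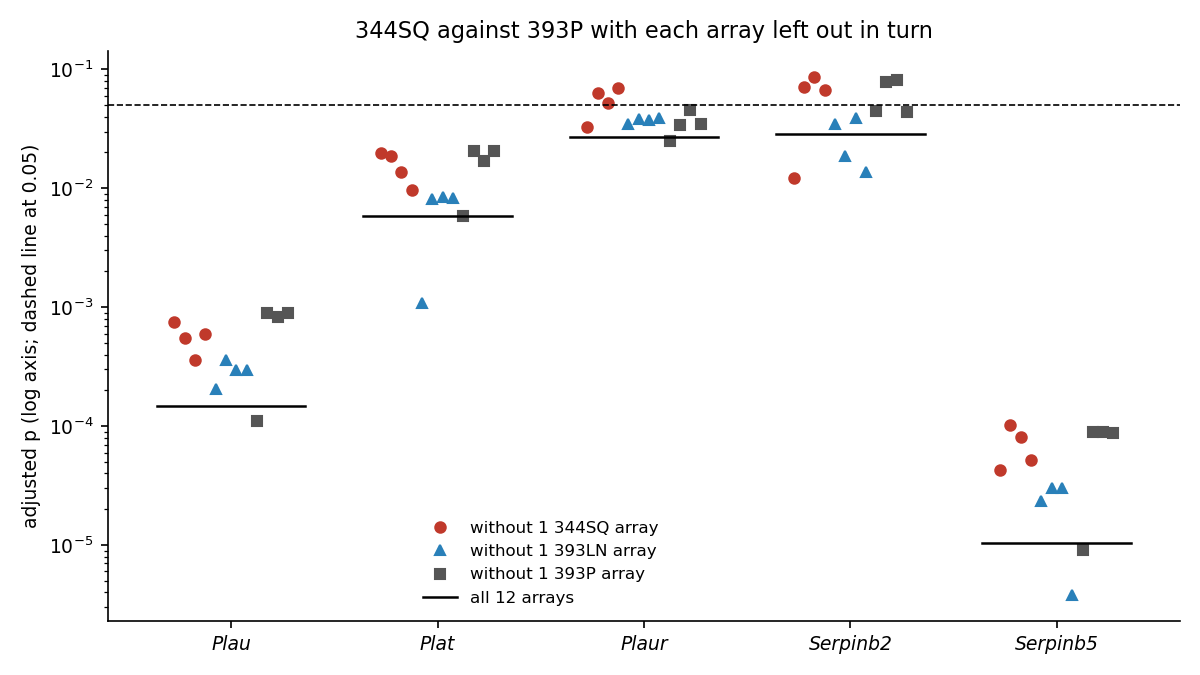
Adjusted p of the 5 genes called in 344SQ against 393P, on a log axis, with each of the 12 arrays left out in turn (symbols by the line of the array left out) and with all arrays (black line). Plau, Plat and Serpinb5 stay under 0.05 throughout, and Plaur and Serpinb2 cross it in 3 and 5 of the 12 cases.

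Some markers of several cell types also differed between the lines. The 10 epithelial markers divided evenly in 344SQ against 393P. Esrp1, Rab25, Cldn4, Cldn7 and Epcam fell, with changes from -7.06 (Esrp1) to -3.80 (Cldn7), whereas the 5 others did not pass. Those had changes of -0.0025 for Krt8, -0.06 for Krt18, 0.12 for Cdh1, -0.20 for Krt19 and -0.36 for Krt7 (limma adjusted p 0.146 to 0.994). The general epithelial genes Krt8, Krt18 and Cdh1 were thus about as bright in 344SQ (13.98, 14.22 and 13.51) as in 393P (13.98, 14.28 and 13.39). The summed intensity of all 10 was 66536 to 73580 in 344SQ, against 84594 to 104480 in 393LN and 87543 to 110040 in 393P. Of 10 macrophage markers 3 fell in 344SQ against 393P (Aif1, Tyrobp and Cd14), where 5.62% of all genes were called lower. The 7 others did not pass, and Mrc1 among them was higher, by 0.68. The macrophage sums were 22370 to 38222 in 344SQ, 30529 to 45844 in 393LN and 33828 to 51193 in 393P. Of 9 neutrophil markers 3 fell (Il1b, Padi4 and Ltf), beside the same 5.62% of all genes. The 6 others did not pass, with changes from -1.53 (S100a9) to 0.03 (Ngp). The neutrophil sums were 2936 to 20009 in 344SQ, 5159 to 14362 in 393LN and 9547 to 20463 in 393P. The epithelial list stands beside the change of Serpinb5, a serpin of epithelial cells. The epithelial, macrophage and neutrophil lists stand beside the changes of Plau, Plat, Plaur and Serpinb2. The part of these cells in any of the changes was not tested.

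Fibroblast markers, which stand beside the Timp genes, had sums of 55782 to 68198 in 344SQ and 39831 to 55420 in 393P, although 0 of 10 passed. On 393LN replicate 4 the fibroblast sum was 59046, the highest of its line, and the epithelial sum 84594, the lowest. All 3 Timp genes were at their 393LN maximum on that array, and Serpinb5 and Serpinb2 at their minimum. That array was singled out after its values were seen, and the other lines were mixed. In 344SQ the fibroblast sum was lowest on replicate 4 (55782), where Timp1 and Timp3 were lowest but Timp2 was highest. In 393P the sum was highest on replicate 2 (55420), where Timp3 was highest, while Timp1 was highest on replicate 1. Timp2 was equally high on both of these 393P arrays. Of 8 mast cell markers the protease genes Mcpt1 and Mcpt2 rose in 344SQ, by 1.95 and 2.70 against 393P and by 4.04 and 5.34 against 393LN. Both fell in 393LN against 393P, where no marker of the 5 other lists was called. The 6 other mast cell markers were not called in any comparison, with changes in 344SQ against 393P from -0.22 (Kit) to 0.62 (Mcpt4). In 344SQ, Mcpt2 (mean 13.03) and Mcpt1 (11.96) were the brightest of the list. The mast cell sums were 11363 to 16002 in 344SQ, against 1392 to 1974 in 393LN and 2504 to 5913 in 393P. Of the endothelial markers 0 of 10 passed in any comparison. No marker was at the floor on any array. The part of these cells in the results was not tested.

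Of 18 measured genes of the wider plasminogen system (21 listed) 0 rose and 2 fell in 344SQ against 393P, and the same 2 fell against 393LN. That share is near the 10.5% and 10.9% of all genes called in these comparisons. Both encode membrane serine proteases of epithelia: St14, the gene of matriptase, which can activate urokinase, fell by 4.35 against 393P (limma adjusted p = 5.29e-08; 7.98e-08 against 393LN). Hpn, the gene of hepsin, fell by 1.96 against 393P (limma adjusted p = 0.000788) and fell by 1.80 against 393LN (limma adjusted p = 0.00158). The list's median change was 0.05 against 393P and -0.04 against 393LN, beside -0.00066 and -0.017 over all genes. Plg, which encodes plasminogen and is made mainly in liver, was dim in every line, averaging 5.63 (344SQ), 5.40 (393LN) and 5.48 (393P). Plasminogen binding sites on cells are formed by the products of Anxa2 and S100a10, which had changes of 0.10 (limma adjusted p = 0.663) and -0.33 (0.0553) against 393P. No gene of the list was called for 393LN against 393P.

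Of 19 measured metalloproteinases and other inhibitors (20 listed) 2 fell and 0 rose in 344SQ against 393P. That share is near the 10.5% of all genes called there. Adamts1, an aggrecan-cleaving protease gene, fell by 0.96 ± 0.19 (limma adjusted p = 0.00675) and Mmp7, the gene of matrilysin, by 0.45 ± 0.11 (limma adjusted p = 0.0221). Against 393LN 2 others rose and none fell, again near the share of all genes called (10.9%). They were Mmp14 (0.51 ± 0.12, limma adjusted p = 0.0177), whose membrane-bound product activates the Mmp2 gelatinase together with the Timp2 protein, and Mmp16 (0.79 ± 0.19, limma adjusted p = 0.0192), a relative of it. The list's median was 0.08 against 393P and -0.04 against 393LN, and none was called for 393LN against 393P.

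For the 3 genes with the widest range of line means, the genes with the closest profile over the 12 arrays were sought by the root mean square difference of centred log2 levels, leaving out the dimmest 40% of genes. Closest to Serpinb5 were Atp2c2 (0.39), Ap1m2 (0.39), Bspry (0.40) and Mapk13 (0.45), where the profile of Serpinb5 itself has a root mean square of 1.90. Atp2c2, a calcium pump gene of secretory cells, had line means of 5.87 (344SQ), 9.50 (393LN) and 9.56 (393P). Closest to Plau were Smagp (0.28), Mpzl3 (0.33), Cdcp1 (0.34) and Tmc4 (0.35), against 1.11 for Plau itself. Cdcp1, which encodes a membrane protein cleaved by serine proteases, had line means of 8.09 (344SQ), 10.34 (393LN) and 10.62 (393P). The closest genes to Serpinb2 were farther from it: Ldlrad3 (0.59), Tead4 (0.60), Tmem163 (0.62) and Gcnt3 (0.63), against 1.06 for Serpinb2 itself. With its mean at percentile 38.1, Serpinb2 is itself among the dimmest 40%, so genes as dim as it were not compared. These likenesses are a description, since genes that differ between the lines share the 12 arrays.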

How the data were processed

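The values are probe set intensities on a linear scale as deposited by the authors, from 1 to 21921; their summarisation software was not stated by any label. Taking log2 gave 2-decimal numbers for 100% of them (tolerance 1e-08), so they had been rounded on that scale. The design text names a smaller chip than the 45101 probe sets call for. The number of arrays limits the precision.

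The 12 columns were matched to samples by accession (0 other columns) and grouped by source name; replicates were numbered in accession order. GEO's platform annotation gives 1 symbol for 34945 probe sets, several for 932 and none for 9160, beside 64 controls; 0 symbols changed when updated through Entrez identifiers. The brightest probe set per gene, by mean over 12 arrays, was taken as log2(intensity + 16), with no further scaling and no filter on dim genes, so all 8 matched genes were tested. A fold understates the change of dim genes.

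The line means were estimated in a single model with limma 3.58.1 (lmFit and eBayes) in R 4.3.3, with 9 residual degrees of freedom, two-sided, and Benjamini-Hochberg adjustment over 18193 genes. Other probe sets were fitted together over 34945. No 2 of the 12 arrays held identical values (0 of 66 pairs). On simulated data for 344SQ against 393P with 200 of 18193 genes changed, 81.5% of 2-fold and 97.4% of 4-fold changes were recovered, with 5.88% false calls. Many more genes were called in the real comparison (1907), so these rates need not hold for it.

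The genes, lists and tests were chosen with earlier results of these data known. Every one of the 8 matched genes is named; other genes are named where called in the plasminogen and metalloproteinase lists (up to 4 per comparison) or closest in profile (4 each); others named, among them Plg, Anxa2, S100a10, Nkx2-1 and the serpin B genes, were chosen after their values were seen. Alternatives were quantile and median scaling, pseudocounts 1 and 64, 2 filters on dim genes, other probe set choices, a fit of 2 lines, another prior, array weights, and leaving out each array.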

Additional observations from a re-analysis of the deposited data

Results flagged for a closer look

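In 4 of 24 sets of 4 arrays (8 genes in 3 lines), 1 array stood apart from the other 3, with a gap to the nearest over 0.829 of the whole range; chance gives about 1 in 20. Plat was 11.99 on 393LN replicate 1, where the other 393LN arrays were at 10.83 to 10.89. Serpinb5 was 10.49 on 393LN replicate 4, against 11.49 to 11.59 on the other 393LN arrays. On 393P replicate 1 both Plaur, at 11.08, and Serpinb5, at 10.02, were below the other 393P arrays, which lay at 11.85 to 11.93 and at 10.97 to 11.05. Without 393P replicate 1 the change in 344SQ against 393P was 0.51 for Plaur (limma adjusted p = 0.0251) and -3.93 for Serpinb5 (limma adjusted p = 9.1e-06), so both calls stood.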

How the results depend on the processing

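Plau and Serpinb5 kept their direction and call in both comparisons of 344SQ, and Plat in 344SQ against 393P, in all 11 other settings and without each array: the change of Plau against 393P ranged from -2.78 to -2.25, that of Serpinb5 from -3.93 to -2.90 and that of Plat from -1.60 to -0.87, where the last is the mean of its 2 probe sets. Without single arrays, 3 to 6 of the 8 genes were called in 344SQ against 393P, 3 to 4 against 393LN and 0 to 1 in 393LN against 393P. In the 11 other settings the counts were 5 to 7, 3 and 0. With array weights Timp1 (adjusted p = 0.0131) and Timp2 (0.0416) also passed against 393P, and Timp2 passed in 3 further settings (0.0275 to 0.0441). Serpinb2 was not tested without the dimmest 50% of genes. Sign changes were seen in uncalled differences. Timp3 in 344SQ against 393P was -0.22 with the most variable probe set and -0.019 to 0.46 without single arrays; against 393LN it was 0.014 after quantile normalization and -0.34 to 0.15 without single arrays. In 393LN against 393P, Timp1 ranged from -0.046 to 0.24 and Timp2 from -0.024 to 0.22 without single arrays. The number of all genes called in 344SQ against 393P was 1907, with 3320 under array weights and 1259 without 393P replicate 3. In 344SQ against 393LN it was 1984, with 1178 without 344SQ replicate 2. In 393LN against 393P it was 446, with 883 under array weights, 174 in a fit of those 2 lines and 156 to 439 without single arrays. The causes were not tested. No paired analysis was made, since the labels match no sample of one line to a sample of another.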
